A study of Gelatoporia subvermispora and Trametes versicolor with 24 samples.

Results

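The loci described here are 175 genes of the white-rot fungus Trametes versicolor whose RNA level with vanillate was at most 0.5 times that with water. They were chosen by the measured values themselves. A locus was selected when its mean over the water flasks was at least 10 CPM (gene counts scaled to one common flask total, with TMM, which corrects for differing RNA composition) and the ratio of the vanillate mean to the water mean, with 1 CPM added to each, was at most 0.5. Ratios of group means and the fold changes given below, which are their inverses, all carry this 1 CPM, and ratios of one flask to another do not. Of 14570 genes in the count tables of this fungus and 26883 in the tables of both fungi of the series, 14528 were loci of T. versicolor named by an identifier, and 7736 of these reached 10 CPM in water; these are called expressed loci below. The 175 members make up 2.26% of them. Because the vanillate-to-water contrast chose the members, its values are given as a description. A fit across all genes serves only to give the background share of genes called lower.

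Strain FP-101664 of T. versicolor was grown as a monokaryon, mycelium with a single type of nucleus, without shaking at 28 °C in the dark in a medium containing cellobiose at 5 g/L. On day 5, cultures of both groups were supplied with ascorbic acid at 5 mM and α-tocopherol at 1 mM and, 30 min afterwards, the first of 2 pulses that were 12 h apart. The vanillate group was given vanillate to a final 2 mM (vanillic acid brought to pH 8 with sodium hydroxide before use), and the water group an equal volume of water. Sodium and any change of pH came with the vanillate, so their effects cannot be told apart from its own. Mycelium was collected on day 6, 12 h after the second pulse, from 3 flasks of each group. The labels do not say whether flasks of a group had seed cultures of their own.

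White-rot fungi break down lignin, the aromatic polymer of wood. Vanillate is a small aromatic acid with a methoxy group that arises when lignin is oxidised, and fungi that use such acids remove the methoxy group, hydroxylate the ring and open it, so that the carbon can enter central metabolism. The series concerns the catabolism of methoxylated aromatics of this kind. Genes whose transcripts were fewer in the vanillate group are the ones described here. The count tables name each of the 175 only by an identifier, so no function is given for any of them.

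Each flask was sequenced as 2 libraries, which were summed. Flask totals ran from 3950984 gene counts (water replicate 3) to 13835447 (water replicate 2). Every member had at least 30 counts in each water flask and at least 13 in each vanillate flask. CPM is relative to all gene counts of a flask and is not divided by gene length. A high CPM thus says that a locus drew many reads and does not rank its transcript number against that of other loci. In a culture measured in bulk, fewer hyphae that express a gene and less of its RNA per hypha cannot be told apart.

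The falls were modest in size. The median member was 2.30-fold lower with vanillate (ratio 0.436) and the most changed was 5.34-fold lower (ratio 0.187). Without the added 1 CPM the most changed was another locus, TRAVEDRAFT_86322, at 6.65-fold (ratio 0.150). Of the 175 ratios, 5 were below 0.25, 12 lay between 0.25 and 0.333, 40 between 0.333 and 0.4, 42 between 0.4 and 0.45, and 76 between 0.45 and 0.5. No member fell 8-fold. By the same water minimum, 206 loci were at least doubled, of which 50 were at least 4-fold and 24 at least 8-fold higher. Over all expressed loci the median ratio was 0.948, which is -0.08 on the log2 scale. In Gelatoporia subvermispora, the other fungus of the series, which was treated the same way on day 12 of growth in its own cultures, the same limits found 256 halved and 256 doubled among 7952 loci, with 12 loci at least 4-fold lower. The difference between the fungi was not tested.

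**Figure D1:**
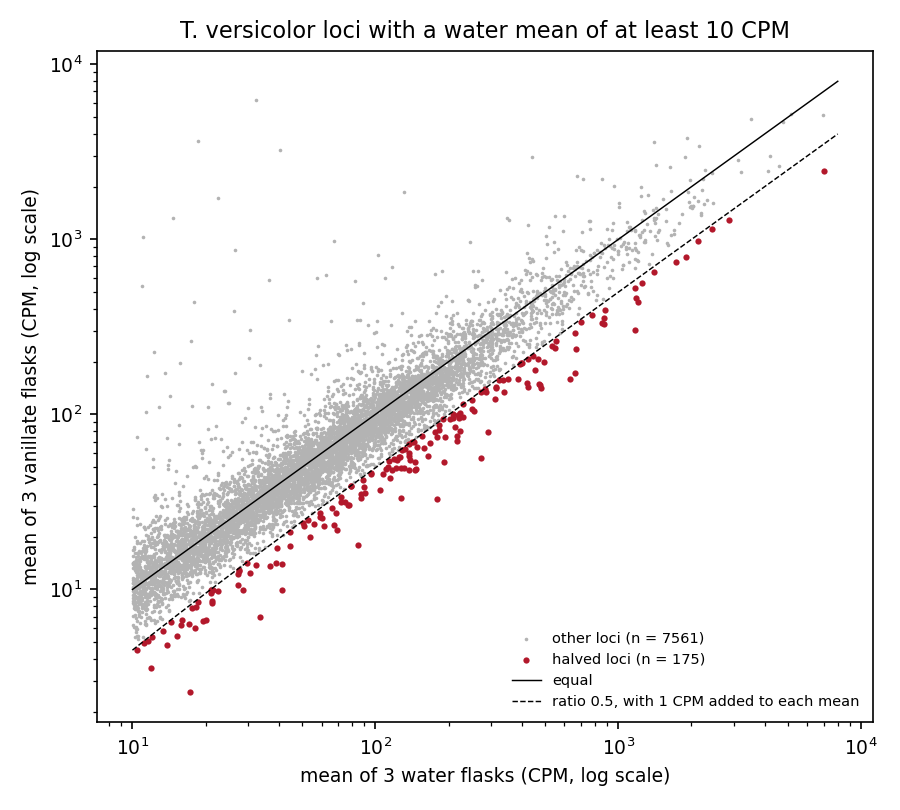
Mean CPM of the 3 vanillate flasks against mean CPM of the 3 water flasks for the 7736 expressed loci, both on log axes, with the 175 halved loci in red, the solid line at equal means and the dashed line at a ratio of 0.5. The red points lie on or below the dashed line by construction and reach from 10.5 to 7049 CPM in water.

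Members were found at every level of expression. Their water means ran from 10.5 to 7049 CPM with a median of 137.6 CPM, against a median of 58.7 CPM over all expressed loci. Of the 2440 expressed loci at 100 CPM or more in water, 106 were members, which is 4.34%, and of the 119 at 1000 CPM or more, 12 were members, which is 10.1%. The 1 CPM added to both means draws ratios of low loci towards 1 and so keeps some of them out. With no constant added, 185 loci met the limits. Why the share of members differed with level was not tested. Together the members took 6.29%, 5.06% and 5.63% of TMM-scaled gene counts in water replicates 1 to 3, and 2.23%, 2.22% and 2.49% in the vanillate flasks. The group means were 5.66% ± 0.617 (SD, n = 3) and 2.31% ± 0.153, and the 10 members with the most reads supplied 40.8% of the members' total in water.

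In each of the 175 members, every vanillate flask was below every water flask. Among all 7736 expressed loci such a downward separation was seen in 2487, or 32.1%. In an edgeR quasi-likelihood fit of all 11032 genes of T. versicolor with enough counts, 2042 genes, or 18.5%, were called lower with vanillate at a threshold of 0.05 on the adjusted p (Benjamini-Hochberg), and 174 of the 175 members were among them. Both counts follow from how the members were picked, and nothing is read from them. The member that was not called is TRAVEDRAFT_30593, which is also the member nearest the limit.

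**Figure D2:**
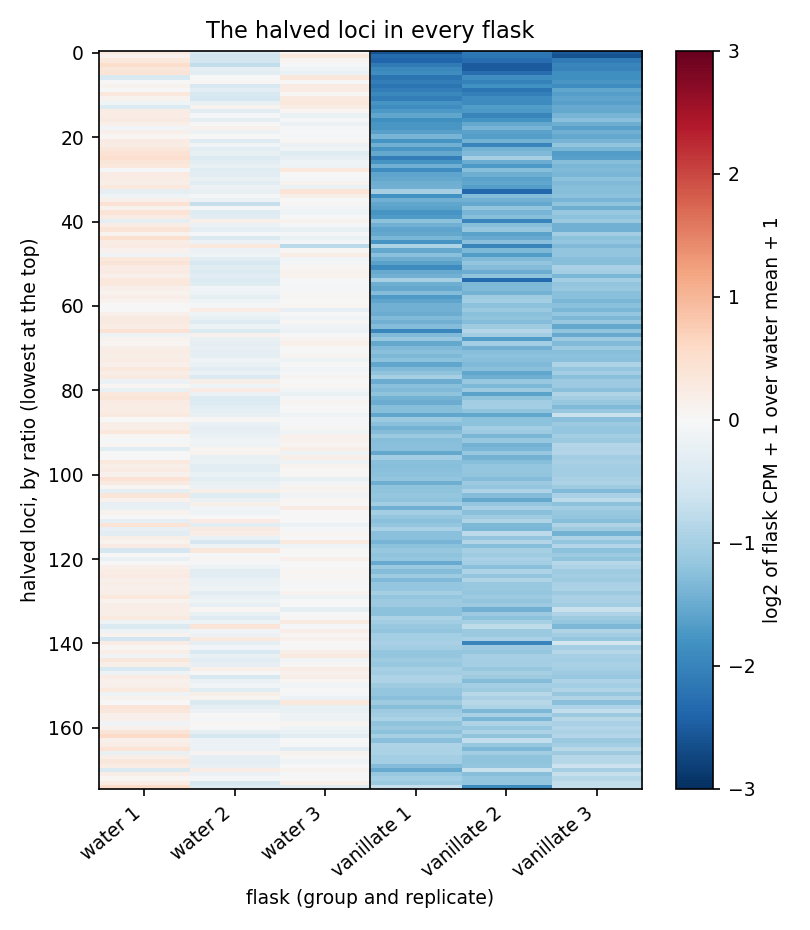
Level of each of the 175 halved loci (one row each, lowest ratio at the top) in the 6 flasks, as log2 of flask CPM + 1 over the locus's water mean + 1. The vanillate columns are below 0 throughout, and within the water columns replicate 1 is mostly above its row's mean and replicate 2 mostly below it.

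The locus with the lowest ratio, 1 CPM added, was TRAVEDRAFT_152872. It stood at 219.3, 130.8 and 186.9 CPM in water replicates 1 to 3 and at 28.2, 39.5 and 30.4 CPM in vanillate replicates 1 to 3. All vanillate flasks were far under the lowest water flask, replicate 2. The means were 179.0 ± 44.8 CPM in water and 32.7 ± 6.00 CPM with vanillate (SD, n = 3), a 5.34-fold fall. Setting each vanillate flask against each water flask, the ratio of CPM ranged from 0.129 to 0.302.

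TRAVEDRAFT_86322 had the next lowest ratio, 0.197, at a much lower level. At this level the ratio depends on the added constant. It was 0.150 with none, the lowest of any member, and 0.341 with 5 CPM. Its water flasks read 18.9, 11.2 and 21.8 CPM, on 112, 158 and 87 counts, and its vanillate flasks 2.71, 3.09 and 2.00 CPM, on 14, 18 and 15 counts. The groups were well apart, and counts this small leave the vanillate level imprecise. The means were 17.3 ± 5.48 and 2.60 ± 0.55 CPM, and the flask-to-flask ratio ranged from 0.0917 to 0.277.

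TRAVEDRAFT_52018 followed with 339.1, 186.4 and 289.3 CPM in water and 51.0, 55.1 and 62.5 CPM with vanillate. Here too water replicate 2 was the lowest of its group, and vanillate replicate 3 the highest of its own. The means were 271.6 ± 77.8 and 56.2 ± 5.81 CPM, a 4.77-fold fall. TRAVEDRAFT_147587 had 122.5, 50.0 and 81.2 CPM in water and 18.6, 14.3 and 21.0 CPM with vanillate, a ratio of 0.222. Its water flasks differed more than 2-fold among themselves, which makes it one of the members with the widest spread in water, and its flask-to-flask ratio ran from 0.116 to 0.421. TRAVEDRAFT_41223, the last of the 5 members under a ratio of 0.25, stood at 43.1, 27.2 and 30.6 CPM in water and 8.12, 5.15 and 7.59 CPM with vanillate.

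The other 5 of the 10 lowest ratios lay between 0.254 and 0.266. TRAVEDRAFT_149286 was the steadiest of them, with 1150, 1198 and 1157 CPM in water and 275.4, 287.5 and 348.5 CPM with vanillate. The water values differed by a few percent (coefficient of variation, CV, 2.19%), and the highest flask-to-flask ratio was 0.303. TRAVEDRAFT_151665 fell from 665.0 ± 161.7 to 172.7 ± 23.4 CPM and TRAVEDRAFT_144883 from 629.6 ± 176.4 to 158.9 ± 26.1 CPM. TRAVEDRAFT_39801 and TRAVEDRAFT_53314 drew fewer reads, at 127.5 ± 24.7 and 41.4 ± 11.6 CPM in water and 33.2 ± 8.37 and 9.96 ± 1.44 CPM with vanillate. TRAVEDRAFT_53314 departs from the usual order of the water flasks, with replicate 1 the lowest at 29.6 CPM and replicate 3 the highest at 52.9 CPM.

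**Figure D3:**
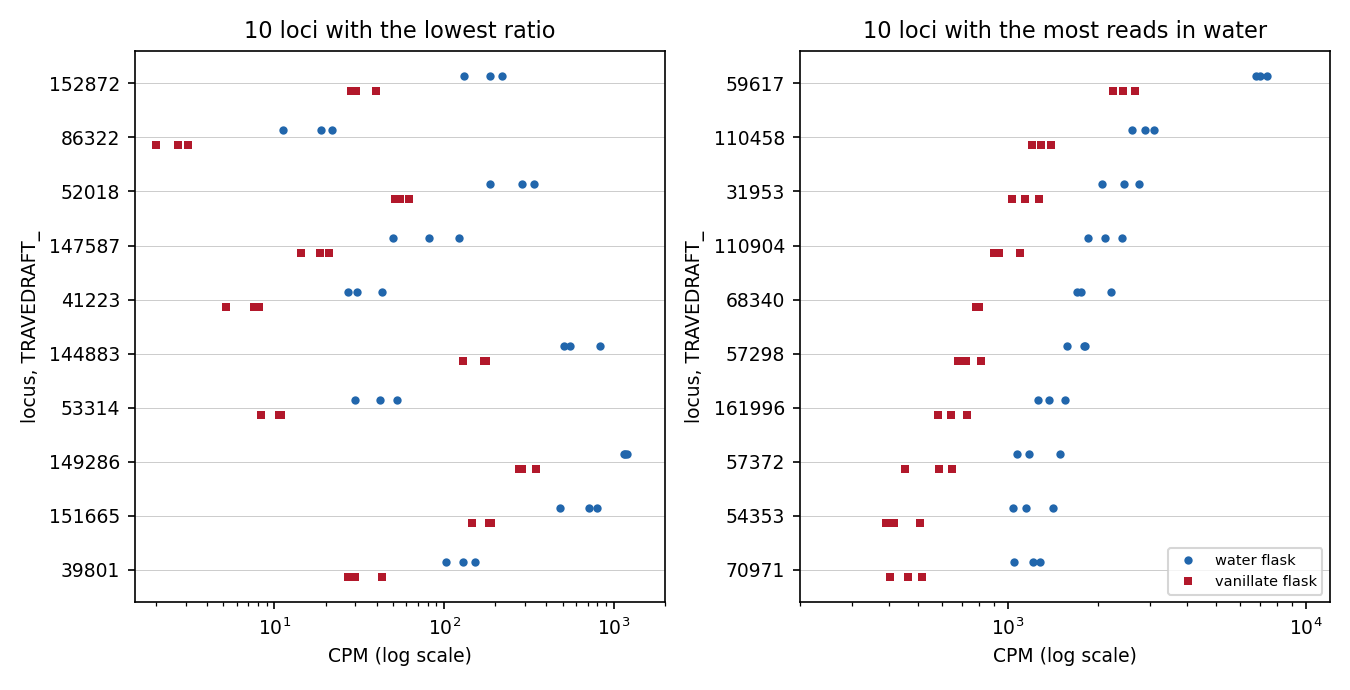
CPM in every flask, on log axes, for the 10 halved loci with the lowest ratio (left) and the 10 with the most reads in water (right), each named by the number after TRAVEDRAFT_. Blue circles are the 3 water flasks and red squares the 3 vanillate flasks, and the colours do not overlap in any row.

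TRAVEDRAFT_59617 drew more reads in water than any other gene of T. versicolor. It stood at 7385, 6984 and 6779 CPM in water replicates 1 to 3 and at 2674, 2243 and 2440 CPM in the vanillate flasks. Each group was tight and the groups were far apart, on at least 13056 counts in every flask. The means were 7049 ± 308.1 and 2452 ± 215.8 CPM (SD, n = 3), a 2.87-fold fall, and with vanillate the locus ranked 25th of all genes by CPM. Alone it made up 12.5% of the members' total in water.

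The next 9 members by reads in water fell between 2.10-fold and 2.74-fold. TRAVEDRAFT_110458 stood at 3084, 2604 and 2873 CPM in water and 1397, 1204 and 1293 CPM with vanillate. TRAVEDRAFT_31953 stood at 2746, 2066 and 2454 CPM in water and 1034, 1145 and 1272 CPM with vanillate. Water replicate 2 was the lowest water flask in both, and no flask of one group reached the other. TRAVEDRAFT_110904 fell from 2130 ± 274.2 to 977.9 ± 106.0 CPM, TRAVEDRAFT_68340 from 1894 ± 283.0 to 789.5 ± 11.9 CPM, and TRAVEDRAFT_57298 from 1731 ± 133.5 to 739.4 ± 67.7 CPM. TRAVEDRAFT_161996, TRAVEDRAFT_57372, TRAVEDRAFT_54353 and TRAVEDRAFT_70971 had water means between 1179 and 1397 CPM and ratios of 0.467, 0.451, 0.365 and 0.391. Of the 10, only TRAVEDRAFT_59617 was also among the 10 genes with the most reads in water. The 100 genes with the most reads in water held 12 members.

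The limit of 0.5 cut through a continuous range of ratios. The 5 members just inside it were TRAVEDRAFT_30593 at 0.4997, TRAVEDRAFT_58222 at 0.498, TRAVEDRAFT_68010 at 0.498, TRAVEDRAFT_74192 at 0.498 and TRAVEDRAFT_98550 at 0.496. The 5 loci just outside it were TRAVEDRAFT_65071 at 0.5004, TRAVEDRAFT_58150 at 0.502, TRAVEDRAFT_25986 at 0.502, TRAVEDRAFT_54355 at 0.505 and TRAVEDRAFT_146818 at 0.505. Water means were 29.7 to 229.9 CPM for the former and 21.1 to 125.0 CPM for the latter.

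Members differed widely in how far their flasks stood apart. TRAVEDRAFT_30593 had 115.9, 60.8 and 61.6 CPM in water and 49.1, 20.8 and 47.7 CPM with vanillate, so that its highest vanillate flask came to 0.808 of its lowest water flask. TRAVEDRAFT_28848 had 16.5, 17.6 and 7.51 CPM in water and 6.76, 2.75 and 4.93 CPM with vanillate, and here that value was 0.900, the highest of any member. In 5 members it was above 0.8. At the other end, 46 of the 175 members, or 26.3%, had every vanillate flask at 0.5 or less of every water flask (42 with 1 CPM added to each flask), among them TRAVEDRAFT_29378. That locus had the smallest spread in water, with 221.0, 217.0 and 218.7 CPM (CV 0.918%) against 97.4, 104.4 and 95.8 CPM with vanillate. TRAVEDRAFT_144048 was almost as even, with 535.0 ± 12.9 CPM in the water group and 245.7 ± 13.4 CPM in the vanillate group. The widest spread in water was that of TRAVEDRAFT_41282, with 213.2, 98.2 and 114.5 CPM (CV 43.9%), followed by TRAVEDRAFT_147587 and TRAVEDRAFT_28848 (CV 43.0% and 39.9%).

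The rule used group means and not the spread within a group, but those means came from the same flasks. A locus whose flasks vary widely can meet the limit more easily, so spread and flask order are not independent of the choice. Both are set below, without a test, beside those of other loci. The median CV over the water flasks was 17.5% for members (interquartile range 12.1% to 23.9%) and 8.99% for the other 7561 expressed loci (5.53% to 13.7%). Over the vanillate flasks it was 13.6% and 7.63%. Loci with ratios of 0.5 to 0.7 were intermediate in water (11.6%), and loci at least doubled had 11.5%. The medians also differed between loci of like level. From 10 to 50 CPM in water the medians were 22.0% for 41 members and 10.8% for 3398 other loci, from 50 to 200 CPM 18.1% and 7.61%, and at 200 CPM or more 15.0% for 66 members and 8.06% for 975 other loci.

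**Figure D4:**
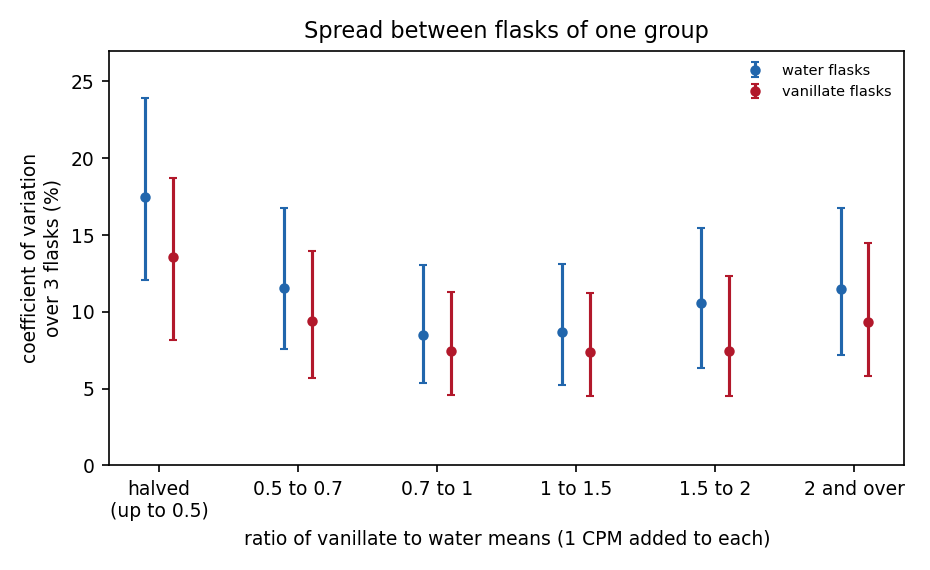
Coefficient of variation over the 3 flasks of each group for expressed loci in bands of the vanillate-to-water ratio, with the median as a point and the interquartile range as a bar. The halved loci have medians of 17.5% in water and 13.6% with vanillate, above those of the bands around a ratio of 1.

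The spread of the members had a shared direction. Water replicate 2 was the lowest of the water flasks in 127 of 175 members, or 72.6%, and in 34.5% of the other expressed loci. Water replicate 1 was the highest in 123 members, or 70.3%, and in 41.3% of the others. Against its own group mean on the log2 scale of CPM + 1, the median member stood at 0.19 in water replicate 1, -0.19 in replicate 2 and 0.02 in replicate 3, while the median of the other loci was within 0.02 of 0 in each. The share lowest in water replicate 2 was 58.5% in members from 10 to 50 CPM, 72.1% from 50 to 200 CPM and 81.8% at 200 CPM or more, beside 28.9%, 37.1% and 45.03% of the other loci.

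Outside the members, the share of loci lowest in water replicate 2 was smaller at higher ratios up to 2. Water replicate 2 was lowest in 58.5% of the 772 loci with ratios of 0.5 to 0.7, in 39.4% of the 3567 from 0.7 to 1, in 23.2% of the 2657 from 1 to 1.5, in 22.3% of the 359 from 1.5 to 2, and in 25.2% of the 206 at least doubled. Among the 17 members under a ratio of 0.333 it was lowest in 13. Water replicate 2 was also the deepest flask, with 13835447 gene counts. With every flask thinned to the smallest total it was lowest in 124 members, or 70.9%, and in 38.6% of the other expressed loci. With the first or the second library of each flask alone, water replicate 2 was lowest in 120 members, or 68.6%. The shares of the other loci were then 32.9% and 30.9%. Thinning leaves the expected share of each gene in a flask as it was, and both libraries came from the same flask. Nothing about the reason for the order is therefore read from these counts. What set water replicate 2 apart from the other water flasks was not tested.

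Within the vanillate group, replicate 3 was the highest flask in 102 of 175 members, or 58.3%, and in 35.0% of the other expressed loci. Replicate 1 was the lowest in 86 members, or 49.1%, and in 31.6% of the others. In the 206 loci at least doubled the order was turned around, with replicate 1 highest in 48.5% and replicate 3 highest in 17.0%. Without water replicate 2 the limits found 216 loci, 166 of them members, and without vanillate replicate 3 they found 207, of which 168 were members. Without water replicate 1, the highest water flask of most members, they found 146 loci and 130 members.

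**Figure D5:**
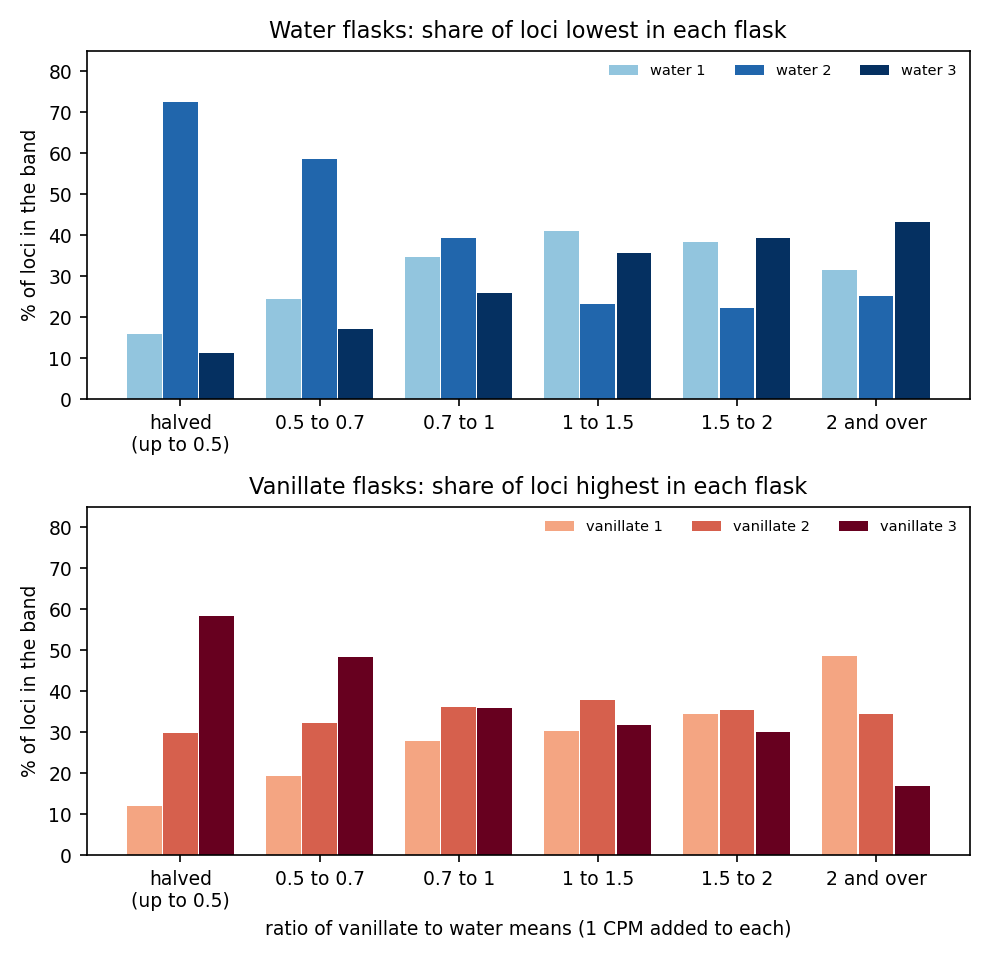
Share of expressed loci that were lowest in each water flask (top) and highest in each vanillate flask (bottom), in bands of the vanillate-to-water ratio. Water replicate 2 is lowest in 72.6% of the halved loci and vanillate replicate 3 is highest in 58.3%, and both shares are smaller in the bands around a ratio of 1.

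Some members carried close identifier numbers. Whether close numbers mean neighbouring genes or related copies is not given by the labels. Reads shared between near-identical copies may have been lost or split in counting, so values of such loci are uncertain. The count tables list 0 reads with more than 1 alignment over the 12 libraries, which does not tell how such reads were handled. The members with close numbers were picked after their values were seen. Of the 175 members, 94 had another expressed locus within 5 in number, and in 16 of these, or 17.0%, such a locus was itself a member. Among the other expressed loci with such a neighbour the share was 120 of 3758, or 3.19%. The shares depend on the distance allowed. Within 1, 2 and 10 in number they were 27.6%, 25.5% and 16.4% of members and 2.56%, 2.45% and 4.33% of the others. The 16 fell into 6 pairs and a run of 4.

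The run of 4 was TRAVEDRAFT_184716, TRAVEDRAFT_184721, TRAVEDRAFT_184723 and TRAVEDRAFT_184724, and they were the only expressed loci among 11 within 5 of these numbers. TRAVEDRAFT_184721 stood at 81.4, 66.6 and 60.1 CPM in water and 22.8, 16.8 and 25.8 CPM with vanillate. TRAVEDRAFT_184723 stood at 79.2, 63.8 and 60.4 CPM in water and 24.2, 16.3 and 29.4 CPM with vanillate. The levels of this pair were nearly the same in every flask. TRAVEDRAFT_184716 fell from 36.8 ± 2.38 to 13.6 ± 3.36 CPM and TRAVEDRAFT_184724 from 17.6 ± 3.02 to 7.82 ± 2.52 CPM. In all 4 the lowest vanillate flask was replicate 2 and the highest replicate 3, and in 1 of the 4 water replicate 2 was the lowest water flask.

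The 6 pairs had levels that were less alike. TRAVEDRAFT_25215 and TRAVEDRAFT_25217 drew 874.5 ± 86.4 and 781.9 ± 121.8 CPM in water and 355.7 ± 40.7 and 371.0 ± 5.06 CPM with vanillate. TRAVEDRAFT_42031 fell from 472.1 ± 90.5 to 148.3 ± 11.4 CPM, a ratio of 0.316, and TRAVEDRAFT_42032 from 286.1 ± 30.1 to 134.8 ± 11.0 CPM, a ratio of 0.473. TRAVEDRAFT_42275 and TRAVEDRAFT_42276 were close in water, at 209.1 ± 31.8 and 213.2 ± 19.5 CPM, and read 100.5 ± 5.89 and 84.5 ± 11.7 CPM in the vanillate group. TRAVEDRAFT_30562 and TRAVEDRAFT_30564 were not, at 27.3 ± 4.11 and 424.5 ± 45.9 CPM, although their ratios were 0.410 and 0.342. TRAVEDRAFT_60064 and TRAVEDRAFT_60069 had ratios of 0.494 and 0.447 at water means of 400.9 ± 91.4 and 59.1 ± 5.03 CPM. TRAVEDRAFT_72294 and TRAVEDRAFT_72295 had ratios of 0.434 and 0.427 at 15.8 ± 3.77 and 30.5 ± 7.33 CPM. In all 6 pairs both loci were lowest in water replicate 2 among the water flasks.

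Of the genes of T. versicolor that carry a symbol, 15 reached 10 CPM in water and 0 met the ratio limit. Among all expressed loci 2.26% met it, so nothing is read from a count of 0 among 15. The lowest ratios among the 15 were 0.584 for LiP1, a lignin peroxidase, and 0.584 for LDO1. Next came 0.607 for the laccase TvLac1 and 0.636 for the dye-decolorizing peroxidase DyP1. The highest were 1.24 for CCP1, 1.14 for the laccase TvLac3 and 1.03 for the lignin peroxidase LiP6. Laccases and lignin peroxidases thus lay on both sides of 1. LiP1 read 17.8 ± 5.30 CPM in water and 9.98 ± 0.781 CPM with vanillate. TvLac1 read 148.4, 255.1 and 391.8 CPM in water replicates 1 to 3 and 96.8, 144.8 and 239.9 CPM in vanillate replicates 1 to 3. Its groups thus overlapped. Those of LDO1 overlapped too, with 114.0 CPM in water replicate 2 and 122.2 CPM in vanillate replicate 3. In LiP1, DyP1 and MnP11s every vanillate flask was below every water flask, which held for 32.1% of all expressed loci. In TvLac3 and CCP1 every vanillate flask was above every water flask. LiP1 rested on 48 to 74 counts in a vanillate flask, and nothing is read from these separations.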

How the data were processed

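RNA of T. versicolor was measured in 12 libraries, 2 for each of 3 water and 3 vanillate flasks, per the labels' protocols from total RNA freed of DNA, using a stranded kit and single reads. The authors deposited raw read counts per gene. FastQC, STAR and HTSeq are named, without versions, in the submitters' processing notes. Genome build, annotation and strand setting are not given in those notes, so antisense or overlapping genes could share reads. The 5 closing lines of reads assigned to no gene, 23.3% to 25.7% of a library, were left out. Libraries held 1764115 to 8143448 gene counts.

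The repeat libraries of a flask gave a chi-square per degree of freedom of 1.02 to 1.09 (6 pairs, genes with at least 10 counts), against 2.31 to 8.76 between flasks of a group (24 pairs), and were summed and counted once. p-values therefore measure the spread between flasks. CPM was computed with TMM scaling on all rows that name a gene. Across all genes, edgeR 4.0.16 in R 4.3.3 fitted vanillate against water (filterByExpr with min.count 10 and min.total.count 15, TMM, robust quasi-likelihood F test, two-sided), with DESeq2 1.42.0 as an alternative. Scripts were tested on simulated data. Alternatives changed the scaling, added constant, limits, libraries, filters and flasks.

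The members and lists were chosen with earlier results of these data known. Loci named are the 10 with the lowest ratio, the 10 with the highest water mean, 5 on each side of the limit and 3 each with the largest and smallest CV in water. The 16 members with close identifier numbers and the genes with symbols are named outside that rule, after their values were seen. The parts of that rule on overlapping groups, annotated neighbours and counterparts in G. subvermispora named no locus. The 16 lists of product keywords drawn up for this fungus matched 0 members, since identifiers carry no product, and no protein comparison with G. subvermispora was made.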

Additional observations from a re-analysis of the deposited data

How the results depend on the processing

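The count of 175 halved loci moved by more than 1.5 times only when the ratio limit itself was changed, to 57 loci at 0.4 and 425 at 0.6. Under the other settings tried it was 132 to 216. All 175 members stayed under library totals (182 loci), DESeq2 size factors (176) and with no constant added (185), 170 stayed with TMM computed on the filtered genes, 132 stayed with 5 CPM added to each mean, and 153 stayed with the median of the flasks in place of the mean (178 loci). Leaving out a flask gave 146 to 216 loci, and 109 members met the limits whichever flask was left out. Both libraries taken alone kept 147. Whether the replicate numbers pair the flasks was not tested. The deviations of same-numbered flasks from their group means correlated at -0.06, 0.18 and -0.07 over expressed loci. Flasks with different numbers were not set beside them. With a replicate block, the ratio averaged over same-numbered flasks with 1 CPM added, 173 loci met the limits, and the edgeR fit with that block called 173 members lower. The count of members called lower was 172 to 175 under every other test, filter and left-out flask, and the DESeq2 Wald test called 174.

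Of 544 ratios recomputed for 34 named loci, 539 moved by less than the SD of the flask-to-flask ratios (1 CPM added to each flask), 5 by more, and 0 crossed 1. In these loci every vanillate flask was below every water flask. A left-out flask, the median or another constant therefore could not bring a ratio to 1, and nothing is read from the 0. The ratio of TRAVEDRAFT_86322 ranged from 0.150 to 0.341, that of TRAVEDRAFT_30593 from 0.438 to 0.778 and that of TRAVEDRAFT_41282 from 0.426 to 0.654. Members near 10 CPM rest on few counts, down to 13 in a vanillate flask. The thinned counts, the alternatives for the order of the water flasks and for the count of members called lower, and the count of members that stay whichever flask is left out were added after seeing the data. Alternatives for counterparts in G. subvermispora were not run.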

Other observations

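Below the water minimum, 1231 loci had a mean of 5 to 10 CPM in water, and 7 of them had a ratio of at most 0.5.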
